A study of Drosophila melanogaster with 18 samples.

Results

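Wing discs, folded pouches of larval epithelium from which the adult wing and part of the thorax develop, were cultured for 4 h with either of 2 hormones, and the comparison described here is that of 20-hydroxyecdysone (20E) with insulin. It used the 3 libraries of discs kept in 20E and the 3 libraries of discs kept in insulin, 6 of the 18 libraries of the series, across all genes with an FPKM (fragment counts scaled by transcript length and library depth) of at least 1 in at least 3 of the 18 libraries. That left 8524 genes of the 15602 in the deposited table. All discs came from wild type larvae of the OregonR strain, dissected 96 h after egg laying. The 20E discs had 20 nM 20-hydroxyecdysone, added from a stock in ethanol, and the insulin discs had 5 µg/ml bovine insulin, added from a stock in acidified water. Another 3 libraries, from discs kept for 4 h with no hormone, are given beside them, and 3 libraries of each hormone at 9 h serve as a later time. Every culture used Grace's medium with 5% fetal bovine serum, penicillin and streptomycin, with about 15 discs to a vessel. The labels name no culture that had either solvent alone, so hormone and solvent cannot be told apart. The series text calls the 3 libraries of a group biological replicates.

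20E is the active insect steroid hormone. It binds a heterodimer of the nuclear receptors EcR and Ultraspiracle, which switches on a first tier of transcription factors and, through them, tissue effectors of moulting and metamorphosis such as those of disc eversion and cuticle. Insulin acts at the cell surface through the receptor InR, the PI3 kinase and Akt kinases, the transcription factor FOXO and the growth kinase complex TORC1, and is known for promoting sugar use, lipid synthesis and ribosome production.

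The libraries of a group resembled one another more than those of the other hormone. Pearson's r of log2(FPKM + 1) over the genes tested was 0.972 to 0.983 among 20E libraries, 0.973 to 0.984 among insulin libraries and 0.942 to 0.952 between the hormones. Low FPKM values fell on multiples that correspond to 27.9 to 38.2 M fragments per library, an estimate from transcript lengths, since total counts were not used here. All 18 genes of a list of wing disc identity markers, such as vg, ap and nub, were at 1 FPKM or more in every library. Gut protease transcripts were present in some libraries: a list of 24 gut genes summed to 3.73 to 6.32 FPKM in the 20E libraries, to 3.25, 341 and 237.5 FPKM in the insulin libraries and to 1139, 5.37 and 33.3 FPKM in those with no hormone. Insulin replicates 2 and 3 are therefore also left out below where a result changes, which leaves 1 insulin library whose spread is taken from the other groups. A list of 8 fat body genes summed to at most 0.670 FPKM in any of these 9 libraries.

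Differences between the hormones were widespread and mostly small. With limma on log2(FPKM + 1), 4841 of the 8524 genes (56.8%) passed an adjusted p of 0.05, and these are called below. Of these, 2353 (27.6% of those tested) were higher with 20E and 2488 (29.2%) were lower. The difference was under 0.5 on the log2 scale for 65.4% of the called genes. A difference of at least 2-fold was reached by 162 called genes that were higher with 20E (1.90%) and 295 that were lower (3.46%), and one of at least 4-fold by 32 and 69. The median difference over all genes tested was -0.01. These were bulk discs, in which fewer cells of a type and less RNA per cell cannot be told apart.

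The first tier of the ecdysone response separated the groups. Of 15 ecdysone transcription factor genes, 11 were tested, and 7 were higher with 20E and 2 lower. For all genes tested the shares were 27.6% higher and 29.2% lower. Eip75B, a nuclear receptor gene of the early response, had 48.7, 59.6 and 55.2 FPKM with 20E, against 2.9, 4.78 and 3.898 FPKM with insulin and 1.805, 3.79 and 2.45 FPKM with no hormone. The lowest 20E library was above every other library, the means of 20E and insulin were 14.1-fold apart, and the difference was 3.53 ± 0.18 on the log2(FPKM + 1) scale (SE, n = 3, limma adjusted p = 1.28e-09). br, which encodes the Broad zinc finger factors, had 278, 291 and 312 FPKM with 20E and 97.9, 56.5 and 66.95 FPKM with insulin. Its groups did not overlap, and the log2 difference was 2.02 ± 0.20 (limma adjusted p = 1.05e-06). Eip74EF, an ETS-domain early gene, was at 32.1, 31.4 and 30.7 FPKM with 20E and at 14.3, 10.7 and 12.2 FPKM with insulin, a log2 difference of 1.28 ± 0.10. The early genes were close to their no hormone level in insulin: against no hormone, br differed by 2.28 on the log2 scale with 20E and by 0.26 with insulin (limma adjusted p = 9.21e-07 and 0.282).

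The 2 members that fell were the receptor gene itself and a factor of the later, mid-prepupal response. EcR, the ecdysone receptor, had 45.6, 48.8 and 44.2 FPKM with 20E, against 88.2, 85.9 and 86.5 FPKM with insulin. The groups did not overlap, with a log2 difference of -0.90 ± 0.06 (limma adjusted p = 1.27e-08). ftz-f1, a nuclear receptor that gives competence for later ecdysone pulses, was 3.83-fold lower, at 9.46, 11.6 and 9.41 FPKM with 20E and 38.4, 39.8 and 38.6 FPKM with insulin. usp, the partner of EcR, was at 43.4 ± 0.733 FPKM with 20E and 40.2 ± 1.51 FPKM with insulin (SD, n = 3 each) and did not pass the test (limma adjusted p = 0.0869). Hr39, another nuclear receptor gene, rose to 35.2 ± 3.69 FPKM, against 21.5 ± 0.898 FPKM with insulin and 15.4 ± 1.75 FPKM with no hormone (SD, n = 3 each).

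Effector genes of the steroid included the largest rises of the comparison. All 12 ecdysone effector and clearance genes on the list were tested, with 7 higher with 20E and 2 lower. By comparison, 27.6% of all genes were higher and 29.2% lower. The effector list had a median difference of 0.73, against -0.01 over all genes. ImpE2, an ecdysone-inducible gene of imaginal discs, had 430.1, 129 and 251 FPKM with 20E and 29.01, 3.77 and 11.7 FPKM with insulin. Replicates varied widely within each group but the groups did not overlap, and the log2 difference was 4.31 ± 0.75 (limma adjusted p = 1.92e-04). ImpE1, of the same class, had 19.7, 38.9 and 32.9 FPKM with 20E and 2.29, 2.01 and 2.08 FPKM with insulin, 14.3-fold apart. ImpE3 was at 16.6, 6.91 and 9.97 FPKM with 20E and at 5.19, 2.35 and 3.497 FPKM with insulin. Replicate 1 was the highest and replicate 2 the lowest of ImpE3 with either hormone. Its log2 difference was 0.90 without insulin replicates 2 and 3, where the insulin library left was its highest. vri, a bZIP repressor known from the circadian clock, had 39.9, 51.6 and 51.5 FPKM with 20E and 2.79, 1.77 and 1.93 FPKM with insulin. Cyp18a1, the cytochrome P450 that inactivates 20E, was low in both, at 1.03, 3.88 and 3.98 FPKM with 20E and 0.648, 0.404 and 0.251 FPKM with insulin, and rose by 1.36 on the log2 scale (limma adjusted p = 8.05e-04). rpr, a cell death activator that 20E induces in dying larval tissue, had 35.2, 48.9 and 39.9 FPKM with 20E and 14.2, 27.3 and 20.2 FPKM with insulin, groups that did not overlap.

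**Figure D1:**
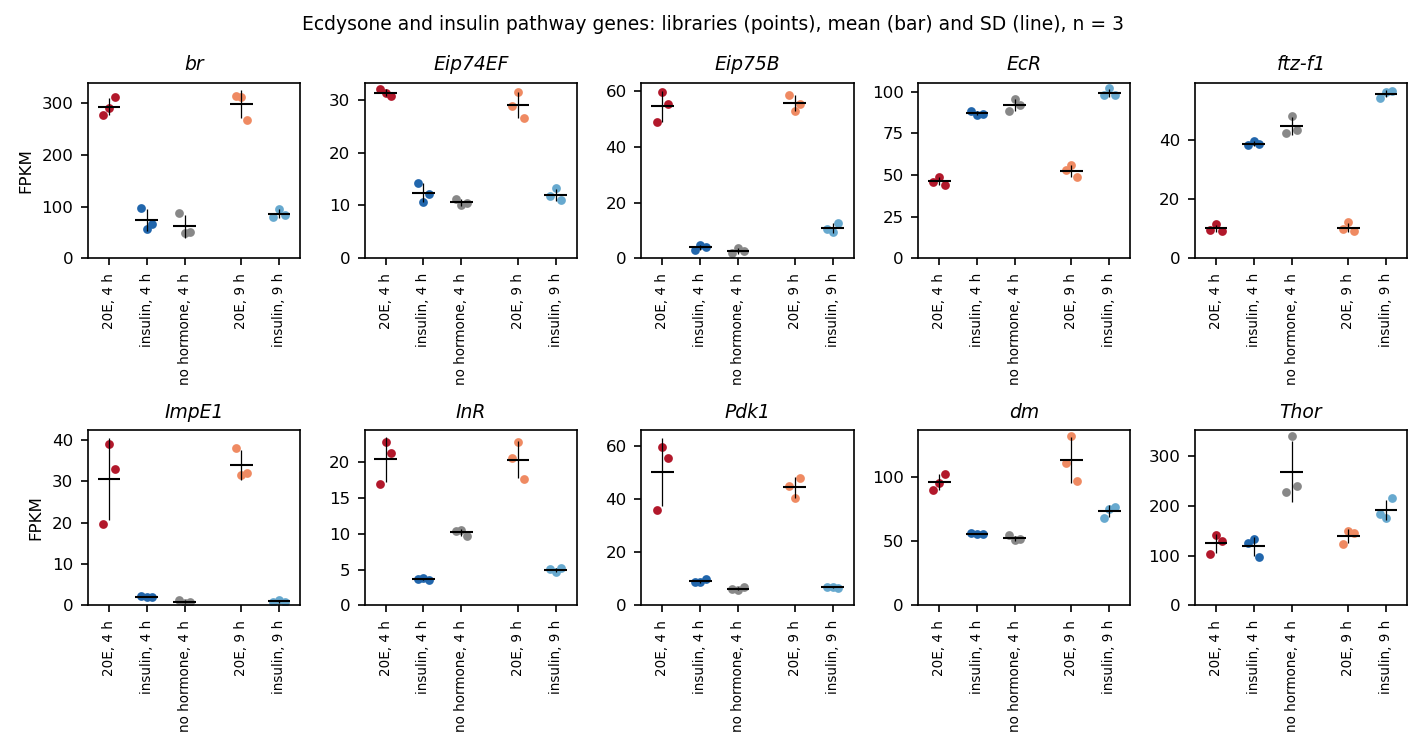
FPKM of 10 ecdysone and insulin pathway genes in discs kept with 20E, insulin or no hormone for 4 h and with 20E or insulin for 9 h; points are libraries, bars the mean and lines the SD (n = 3), on linear axes that start at 0. At 4 h Eip75B reached 48.7 to 59.6 FPKM with 20E, above every insulin and no hormone library, while EcR and ftz-f1 were lower with 20E and the points of Thor overlapped between the hormones.

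Genes of the insulin pathway also differed. InR, the insulin receptor, had 16.9, 22.9 and 21.3 FPKM with 20E, against 3.75, 3.8 and 3.54 FPKM with insulin and 10.4, 10.6 and 9.67 FPKM with no hormone. The no hormone libraries lay between the hormones without overlap, and the 20E to insulin difference was 2.18 ± 0.10 on the log2 scale (limma adjusted p = 7.57e-10). Against no hormone, InR differed by 0.92 with 20E and by -1.26 with insulin. Pdk1, the kinase that activates Akt, had 35.7, 59.5 and 55.3 FPKM with 20E, 8.82, 8.78 and 9.801 FPKM with insulin and 6.02, 5.99 and 7.06 FPKM with no hormone. Every insulin library was above every no hormone library for this gene, though far below those with 20E. The log2 difference between the hormones was 2.30 ± 0.16. dm, the fly Myc gene, was at 95.7 ± 6.28 FPKM with 20E and 55.96 ± 0.539 FPKM with insulin (SD, n = 3 each), a log2 difference of 0.76 (limma adjusted p = 2.89e-06). In all, 20 of 20 insulin and TOR pathway genes were tested, with a median difference of 0.18. While 27.6% of all genes were higher with 20E and 29.2% lower, 12 of these 20 were higher and 4 lower. foxo, at 10.8, 11.3 and 10.4 FPKM with 20E and 13.8, 15.5 and 13.5 FPKM with insulin, was among the 4 that fell, as was srl, the fly PGC-1 gene and a regulator of mitochondrial and growth genes, at 19.1, 22.3 and 20.8 FPKM with 20E and 31.6, 31.3 and 31.3 FPKM with insulin.

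Of 11 insulin ligand and binding protein genes 5 were tested, with 2 higher with 20E and 2 lower. The count of calls was 2 without 20E replicate 3 or insulin replicate 2. The median difference was -0.20, and -0.14 without insulin replicates 2 and 3. Both that fell encode secreted factors that restrain insulin signalling. ImpL2, which encodes an insulin-binding antagonist, had 18.2, 29.9 and 28.9 FPKM with 20E, against 314, 225 and 269 FPKM with insulin and 8.91, 9.57 and 8.26 FPKM with no hormone. It was thus 10.5-fold lower with 20E than with insulin, and the log2 difference was -3.36 ± 0.26 (limma adjusted p = 7.77e-08). Sdr, a secreted decoy of the insulin receptor, had 8.26, 5.54 and 6.05 FPKM with 20E and 16.4, 12.4 and 18.1 FPKM with insulin (log2 difference -1.12 ± 0.17). Of 10 tested genes of the FOXO and starvation response, 4 were higher with 20E and 3 lower. Over all genes 27.6% were higher and 29.2% lower. Thor, the translation repressor 4E-BP and a classical FOXO target, was at 104, 141 and 129 FPKM with 20E and 125, 133 and 97.8 FPKM with insulin, against 227, 339.8 and 239 FPKM with no hormone. The hormone groups overlapped, with a log2 difference of 0.07 ± 0.20 (limma adjusted p = 0.776), and both lay below every no hormone library. Sesn, the stress-induced TORC1 inhibitor Sestrin, did so too, with 4.81 ± 1.47 FPKM with 20E, 3.75 ± 0.494 FPKM with insulin and 22.3 ± 2.52 FPKM with no hormone (SD, n = 3 each). CG18619, now named REPTOR-BP and the partner of a factor that TORC1 holds back, had 280.4, 257 and 292 FPKM with 20E and 117, 137 and 129.8 FPKM with insulin, a log2 difference of 1.11 ± 0.06.

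Several of the 15 largest rises fell outside the known ecdysone genes. Cpr49Ac, a cuticle protein gene, had 63.6, 73.7 and 79.5 FPKM with 20E and 4.58, 4.72 and 3.87 FPKM with insulin, a log2 difference of 3.76 ± 0.16. DAAM, a formin that builds actin filaments, was at 30.7, 39.1 and 43.7 FPKM with 20E, 3.904, 4.19 and 3.97 FPKM with insulin and 3.83, 4.39 and 3.83 FPKM with no hormone. Insulin and no hormone lay close together for both genes, 0.05 and 0.00 apart on the log2 scale. wbl, an endoplasmic reticulum protein known from embryonic dorsoventral patterning, had 40.5, 36.5 and 37.5 FPKM with 20E, 7.39, 5.23 and 4.86 FPKM with insulin and 0.871, 0.662 and 0.854 FPKM with no hormone, so it was above the no hormone level with either hormone. Reg-2, a gene first described by its daily rhythm in heads, was at 10.7 ± 2.41 FPKM with 20E and 0.919 ± 0.379 FPKM with insulin (SD, n = 3 each).

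A second set of rises consisted of genes that were below the no hormone level with insulin. pdgy, an acyl-CoA synthetase gene, had 45.5, 46.3 and 52.2 FPKM with 20E, 7.89, 6.31 and 6.72 FPKM with insulin and 32.3, 36.2 and 29.7 FPKM with no hormone. Its log2 difference was 2.62 ± 0.10 between the hormones, 0.54 for 20E against no hormone and -2.08 for insulin against no hormone. CG5953 (FBgn0032587) had 48.8, 49.4 and 51.6 FPKM with 20E, 5.38, 4.72 and 4.77 FPKM with insulin and 35.5, 35.98 and 32.6 FPKM with no hormone. CG11686 (FBgn0040551) was more abundant, with 327 ± 38.5 FPKM with 20E, 51.02 ± 8.16 FPKM with insulin and 182 ± 13.8 FPKM with no hormone (SD, n = 3 each). CG13857 (FBgn0038958) was at 5.98, 11.2 and 6.34 FPKM with 20E and at 0.251, 0.394 and 0.217 FPKM with insulin, below 7.45, 22.6 and 15.3 FPKM with no hormone. The fold of such a low gene is understated on the log2(FPKM + 1) scale, where its difference was 2.74, against 4.33 with a pseudocount of 0.1. The other 3 genes of the top 15, CG15282, CG14598 and CG9416, have no name in the gene name table, and their means were 11-fold, 11.2-fold and 10.2-fold higher with 20E. They were at 39.9 ± 11.98, 36.1 ± 13.01 and 30.7 ± 4.53 FPKM with 20E and at 3.63 ± 1.46, 3.23 ± 1.01 and 3.02 ± 0.506 FPKM with insulin (SD, n = 3 each). With no hormone they were at 1.83 ± 0.632, 0.882 ± 0.1705 and 3.75 ± 0.2275 FPKM (SD, n = 3 each). Insulin against no hormone was called only for CG14598, which was higher with insulin, so these 3 genes are not part of the second set.

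**Figure D2:**
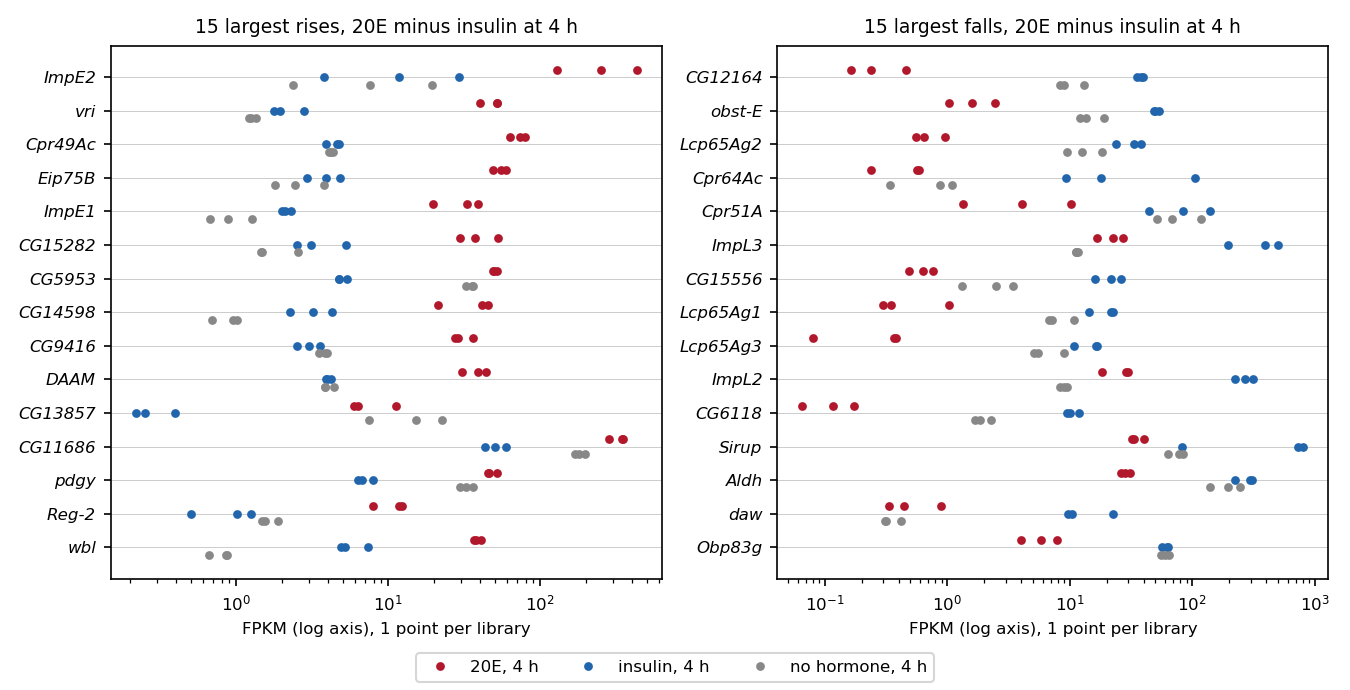
FPKM per library, on a log axis, of the 15 protein-coding genes with the largest rise (left) and the 15 with the largest fall (right) of 20E relative to insulin at 4 h; points are the 3 libraries of 20E, insulin and no hormone. No 20E point overlaps an insulin point, as the naming rule requires, and the no hormone points of pdgy, CG11686 and CG5953 lie nearer to 20E while those of vri, DAAM and Eip75B lie nearer to insulin.

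Of the 15 largest falls 6 were cuticle protein genes, and the largest was of an unnamed gene. CG12164 (FBgn0033158) had 0.457, 0.164 and 0.236 FPKM with 20E and 37.9, 39.9 and 35.3 FPKM with insulin, a log2 difference of -4.92 ± 0.13 (limma adjusted p = 3.91e-12). obst-E, a chitin-binding protein that shapes the larval cuticle, had 1.03, 2.46 and 1.58 FPKM with 20E and 49.8, 53.2 and 48.7 FPKM with insulin, 29.9-fold lower. No hormone libraries were intermediate for both genes, at 10.1 ± 2.63 FPKM for CG12164 and 14.8 ± 3.66 FPKM for obst-E (SD, n = 3 each). The larval cuticle genes Lcp65Ag1, Lcp65Ag2 and Lcp65Ag3 are near-identical neighbours whose reads may have been split between them, so their levels are uncertain one by one. Lcp65Ag2 was at 0.639, 0.953 and 0.5497 FPKM with 20E and 23.8, 33.5 and 37.9 FPKM with insulin, and the 3 genes differed by -3.73, -4.24 and -3.60. Cpr51A had 10.2, 1.33 and 4.05 FPKM with 20E, 139, 44.5 and 84.2 FPKM with insulin and 119, 51.7 and 68.01 FPKM with no hormone, so its insulin and no hormone libraries overlapped. Cpr64Ac had 0.238, 0.568 and 0.591 FPKM with 20E, against 104, 9.38 and 17.8 FPKM with insulin, where replicate 1 was far above the others.

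Of 136 cuticle protein genes in the table, 55 were tested, and 5 were higher with 20E, 20 lower and 30 not called. Of 20 chitin-modifying genes tested, 8 were higher with 20E and 7 lower, where 27.6% of all genes were higher and 29.2% lower. Those that rose included the chitinases Cht5, with 64.5, 57.3 and 65.8 FPKM with 20E and 20.7, 9.89 and 13.2 FPKM with insulin, and Cht3, now named Cht10, with 167, 189 and 183 FPKM with 20E and 67.2, 50.3 and 55.3 FPKM with insulin. Those that fell included the chitin deacetylase genes Cda5, at 1.197, 1.72 and 1.65 FPKM with 20E and 17.6, 9.12 and 9.18 FPKM with insulin, and Cda4, at 166, 108 and 142 FPKM with 20E and 358, 267 and 314 FPKM with insulin. None of these 4 genes had overlapping groups. tyn, which encodes a zona pellucida domain protein of the apical matrix, fell to 11.4 ± 1.73 FPKM with 20E, against 39.99 ± 9.91 FPKM with insulin (SD, n = 3 each).

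Other large falls were scattered over functions. CG15556, now named Ktch, had 0.489, 0.7702 and 0.6298 FPKM with 20E and 16.02, 26.1 and 21.7 FPKM with insulin, and CG6118 (FBgn0038339) had 0.0655, 0.174 and 0.117 FPKM with 20E and 9.42, 11.9 and 10.02 FPKM with insulin. daw, an activin-like ligand of the TGF-beta family, had 0.335, 0.883 and 0.441 FPKM with 20E, 22.4, 10.5 and 9.65 FPKM with insulin and 0.422, 0.312 and 0.318 FPKM with no hormone. The 20E and no hormone libraries overlapped, while every insulin library was above them. Aldh, an aldehyde dehydrogenase gene, was at 28.5 ± 2.65 FPKM with 20E, 275 ± 44.5 FPKM with insulin and 194 ± 51.99 FPKM with no hormone (SD, n = 3 each). Obp83g, an odorant-binding protein gene, had 5.87 ± 1.89 FPKM with 20E, 60.4 ± 3.497 FPKM with insulin and 59.99 ± 4.57 FPKM with no hormone (SD, n = 3 each), so 20E lay below both other conditions. Sirup, a gene named for its rise in starvation, had 32.5, 40.1 and 33.7 FPKM with 20E and 806, 82.9 and 728 FPKM with insulin. Insulin replicate 2 was far below the other insulin libraries and near the no hormone level of 74.9 ± 10.5 FPKM (SD, n = 3).

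Most glycolysis genes were lower with 20E than with insulin, where 29.2% of all genes were called lower and 27.6% higher. Of 12 glycolysis genes tested, 11 were lower with 20E and none higher, with a median difference of -2.0. The 20E and insulin groups did not overlap for these 11. Across the table, ranges did not overlap for 63.1% of genes, with every 20E library above in 31.0% and below in 32.1%. ImpL3, the lactate dehydrogenase gene now named Ldh, had 16.7, 22.6 and 27.4 FPKM with 20E, against 500.5, 196 and 395 FPKM with insulin and 11.6, 11.2 and 11.3 FPKM with no hormone. The log2 difference was -3.89 ± 0.33 (limma adjusted p = 2.29e-07) and the groups were far apart, though the insulin libraries also varied among themselves. Ald, the aldolase gene, had 208, 133 and 159 FPKM with 20E and 1145, 669 and 844 FPKM with insulin, 5.32-fold apart. Pfk, phosphofructokinase, had 47.7, 26.7 and 33.03 FPKM with 20E, 224, 116 and 167 FPKM with insulin and 92.7, 66.6 and 74.9 FPKM with no hormone. The hexokinase gene Hex-A had 23.2, 23.1 and 24.2 FPKM with 20E and 106, 69.6 and 91.2 FPKM with insulin, and Pglym78, a phosphoglycerate mutase, had 45.9 ± 12.4 FPKM with 20E and 249 ± 57.2 FPKM with insulin (SD, n = 3 each). In these 5 genes replicate 2 was the lowest and replicate 1 the highest of the insulin libraries, and for Ald and Pfk of the 20E libraries too. fbp, the gluconeogenic fructose-1,6-bisphosphatase, was the gene not called, at 46.1 ± 3.47 FPKM with 20E and 54.4 ± 9.71 FPKM with insulin (SD, n = 3 each, limma adjusted p = 0.111), and it passed without insulin replicate 2 (limma adjusted p = 0.0199). Set against no hormone, 9 of the 12 were lower with 20E and none higher, where 15.0% of all genes were called lower and 15.7% higher (30.7% in all). With insulin 12 were higher than with no hormone and none lower, where 30.3% of all genes were called higher and 27.6% lower (57.9% in all).

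Genes that supply sugar were mostly lower with 20E as well. Of 10 tested, 7 were lower with 20E, 1 was higher and 2 were not called, with a median of -1.08. Across all genes 29.2% were lower and 27.6% higher. GlyP, glycogen phosphorylase, had 81.2, 44.8 and 53 FPKM with 20E, 431, 262 and 344 FPKM with insulin and 255, 196 and 204 FPKM with no hormone. The trehalase gene Treh had 8.29, 10.9 and 9.05 FPKM with 20E and 44.5, 31.5 and 43.4 FPKM with insulin, and the trehalose transporter gene Tret1-1 had 0.801, 1.67 and 1.28 FPKM with 20E and 13.8, 5.17 and 9.85 FPKM with insulin. Neither gene had overlapping groups, and with no hormone Treh was at 7.898 ± 0.488 FPKM and Tret1-1 at 0.497 ± 0.116 FPKM (SD, n = 3 each). Glut1, a glucose transporter gene, was the member that rose, at 12.7, 9.86 and 10.9 FPKM with 20E, 7.45, 5.05 and 5.39 FPKM with insulin and 5.82, 2.61 and 2.55 FPKM with no hormone. Its log2 difference of 0.81 ± 0.21 was 0.52 without insulin replicates 2 and 3, where the insulin library left was its highest.

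**Figure D3:**
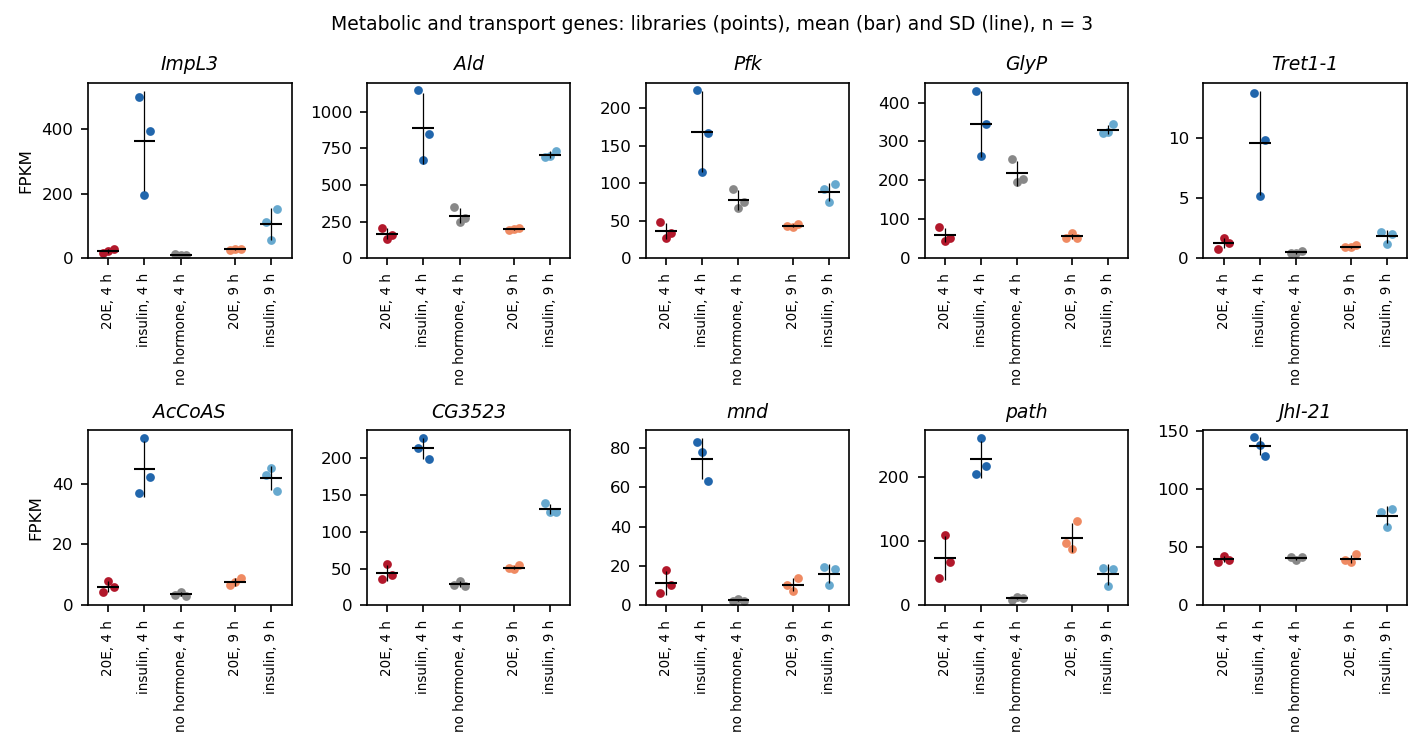
FPKM of 10 genes of sugar, lipid and amino acid metabolism and transport in the 5 cultured groups (20E, insulin and no hormone at 4 h, 20E and insulin at 9 h); points are libraries, bars the mean and lines the SD (n = 3), on linear axes that start at 0. At 4 h every insulin point is above every 20E point in all 10 panels, and at 9 h the points of path are higher with 20E.

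Lipid synthesis genes were lower with 20E and 2 genes of fat use and storage were higher. All 18 tested lipid metabolism genes were called, 15 lower and 3 higher, with a median of -0.51. The shares over all genes were 29.2% lower and 27.6% higher. AcCoAS, which makes acetyl-CoA from acetate, had 4.502, 8.14 and 5.94 FPKM with 20E, 36.9, 54.9 and 42.3 FPKM with insulin and 3.37, 4.37 and 3.196 FPKM with no hormone. CG3523, the fatty acid synthase gene FASN1, had 35.7, 55.8 and 40.8 FPKM with 20E and 212, 227 and 198 FPKM with insulin, and ACC, acetyl-CoA carboxylase, had 19.7, 25.1 and 21.4 FPKM with 20E and 63.5, 66.2 and 60.2 FPKM with insulin. The groups were apart in each of these genes, by 7.21-fold, 4.82-fold and 2.87-fold. HLH106, the fly SREBP gene and an activator of fatty acid synthesis genes, was at 82.01 ± 5.28 FPKM with 20E, 176 ± 3.17 FPKM with insulin and 73.3 ± 3.32 FPKM with no hormone (SD, n = 3 each). On the other side, whd, the carnitine palmitoyltransferase that takes fatty acids into mitochondria, had 16.7, 22.1 and 19.9 FPKM with 20E and 6.35, 5.96 and 5.57 FPKM with insulin, and mdy, a diacylglycerol acyltransferase, had 72.8, 68.5 and 64.3 FPKM with 20E and 19.8, 21.1 and 19.8 FPKM with insulin. Against no hormone these genes differed by -1.57 and -1.36 on the log2 scale with insulin.

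Amino acid uptake genes were mostly lower with 20E, while genes of serine, one-carbon and amino acid synthesis were mixed. Of 11 tested nutrient transporter genes, 7 were lower with 20E and 1 higher, with a median of -1.08. In the whole set of tested genes 29.2% were lower and 27.6% higher. mnd, which encodes an amino acid transporter, had 6.11, 18.1 and 10.4 FPKM with 20E, 82.7, 77.7 and 62.99 FPKM with insulin and 2.34, 3.04 and 2.48 FPKM with no hormone. path, a growth-regulating amino acid transporter, had 42.7, 109.9 and 67.95 FPKM with 20E, 205, 260.3 and 218 FPKM with insulin and 9.24, 13.2 and 11.6 FPKM with no hormone. For both genes the 3 conditions formed separate steps, insulin highest and no hormone lowest. JhI-21, another amino acid transporter, was at 39.6 ± 2.52 FPKM with 20E, 137 ± 8.08 FPKM with insulin and 40.6 ± 1.32 FPKM with no hormone (SD, n = 3 each). Of 13 tested genes of serine, one-carbon and amino acid synthesis, 6 were lower with 20E, 2 higher and 5 not called, with a median of -0.16. The 2 that rose both did so by at least 2-fold. CG6287 (FBgn0032350) had 116, 99.5 and 107 FPKM with 20E and 35.8, 29.8 and 33.5 FPKM with insulin. CG11899 (FBgn0014427) had 86.5, 28.1 and 46.6 FPKM with 20E and 22.2, 6.87 and 14.1 FPKM with insulin. Its replicate 1 was the highest and replicate 2 the lowest with either hormone. The log2 difference of CG11899 was 1.09 without insulin replicates 2 and 3, where the insulin library left was its highest. Among those that fell, CG3011, the serine hydroxymethyltransferase gene now named Shmt, had 59.2, 71.2 and 66.8 FPKM with 20E and 159.9, 184 and 177 FPKM with insulin. Nmdmc, a mitochondrial folate enzyme, had 15.7, 19.7 and 18.2 FPKM with 20E and 54.8, 72.05 and 55.3 FPKM with insulin. ade3, a purine synthesis gene now named Gart, had 53.4, 50.3 and 54.5 FPKM with 20E and 125, 103 and 109 FPKM with insulin, and of 12 purine synthesis genes tested 10 were lower with 20E and none higher.

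Mitochondrial and redox genes were mostly lower with 20E, by smaller medians than the lipid genes. Among genes in general 29.2% were lower and 27.6% higher. Of 22 respiratory chain genes 17 were lower with 20E and none higher, with a median of -0.34, and of 73 mitochondrial ribosomal protein genes 54 were lower and 4 higher, with a median of -0.27. Without insulin replicates 2 and 3 the mitochondrial ribosomal protein median was -0.22. Cyt-c-p, cytochrome c, had the largest fall of the respiratory chain, at 44.6, 67.5 and 62.5 FPKM with 20E, 184, 188 and 172 FPKM with insulin and 32.6, 30.6 and 35.6 FPKM with no hormone. Redox defence genes had 27 of 39 lower and 3 higher, with a median of -0.44, and 10 were at least 2-fold lower and 1 at least 2-fold higher. Jafrac1, the peroxiredoxin gene now named Prx2, had 337, 342 and 356 FPKM with 20E and 870.3, 1009 and 928 FPKM with insulin. GstE6 had 6.23, 13.6 and 19.3 FPKM with 20E and 53.3, 92.8 and 65.4 FPKM with insulin, and GstE1 had 12.5, 30.3 and 34.2 FPKM with 20E and 60.7, 163 and 108 FPKM with insulin. These glutathione transferase genes belong to a cluster of similar copies among which reads may have been shared. GstE1 differed by -1.33 on the log2 scale without insulin replicates 2 and 3, where the insulin library left was its lowest.

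Of 21 nucleolus and RNA polymerase I genes, 20 were lower with 20E and 1 higher, with a median of -0.73. Taking all genes, 29.2% were lower and 27.6% higher. NHP2, a small nucleolar ribonucleoprotein, had 63.1, 83.1 and 79.8 FPKM with 20E, 183, 213 and 196 FPKM with insulin and 38.6, 45.3 and 45.5 FPKM with no hormone. The gene nop5, for another small nucleolar ribonucleoprotein, had 74.98, 82.7 and 82.5 FPKM with 20E, 179, 179 and 179.8 FPKM with insulin and 56.99, 60.7 and 58.7 FPKM with no hormone. With 20E both were above no hormone and with insulin further above, without overlap. Of 87 cytoplasmic ribosomal protein genes, 5 were higher with 20E, 1 was lower and 81 were not called, with a median of 0.08. Their count of calls depended on the fit: 31 when only the 6 libraries were fitted and 69 with array weights, against 6. Of 22 aminoacyl-tRNA synthetase genes, which charge tRNAs for translation, 19 were lower and 2 higher, with a median of -0.52. The valyl-tRNA synthetase gene Aats-val, now named ValRS, was at 22.9 ± 1.92 FPKM with 20E and 54.9 ± 6.09 FPKM with insulin (SD, n = 3 each). Of 33 proteasome genes tested 28 were lower and none higher, with a median of -0.24, and quantile normalization left 17 lower. The proteasome median was -0.20 without insulin replicates 2 and 3.

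Most chaperone and heat shock genes leaned lower with 20E, but a smaller share was called than of all genes. Of the 26 tested, 21 had a negative difference and 5 a positive one. By the test 2 were higher with 20E, 10 lower and 14 not called. Thus 46.2% were called, against 56.8% of all genes. Their median was -0.52, and -0.997 without insulin replicates 2 and 3, which leaves 1 insulin library. Hsp27, a small heat shock gene with a known ecdysone response element, had 1105, 752 and 862 FPKM with 20E and 374, 192 and 285 FPKM with insulin, a log2 difference of 1.71 ± 0.24 (limma adjusted p = 2.64e-05). Hsp83, the fly Hsp90, had 233, 181 and 152 FPKM with 20E and 617, 517 and 506 FPKM with insulin, a log2 difference of -1.54 ± 0.19.

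Cell cycle genes differed in both directions, as did genes in general. stg, the Cdc25 phosphatase that triggers mitosis, had 35.8, 50.1 and 43.2 FPKM with 20E, 83.6, 99.1 and 92.8 FPKM with insulin and 41.1, 49.6 and 47.4 FPKM with no hormone. The 20E and no hormone libraries overlapped and both lay below insulin (log2 difference -1.09 ± 0.12 between the hormones, limma adjusted p = 2.98e-06). CycB, a mitotic cyclin, had 81.7, 90.9 and 86.5 FPKM with 20E and 140.2, 136 and 138 FPKM with insulin. Regulators of S phase entry included 2 that rose: E2f1 had 92.4, 98.6 and 95.4 FPKM with 20E and 47.5, 50.4 and 46.8 FPKM with insulin, and CycE had 24.8, 29.8 and 27.5 FPKM with 20E and 19.8, 21.9 and 19.9 FPKM with insulin. Of 27 cyclin and mitotic genes tested, 7 were higher with 20E and 12 lower, where 27.6% of all genes were higher and 29.2% lower. Of 29 DNA replication genes, 1 was higher, 11 were lower and 17 were not called, with a median of -0.10. The replication count depended on the scaling, with 6 lower after quantile normalization. The replication median was 0.05 without insulin replicates 2 and 3.

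Among all genes tested, 27.6% were higher with 20E and 29.2% lower. Higher members were 13 of 24 in Wingless signalling, 13 of 19 in the Hippo pathway and 12 of 16 in planar cell polarity. None was lower, and the medians were 0.17, 0.23 and 0.27. Without insulin replicates 2 and 3, which leaves 1 insulin library, these medians were 0.11, 0.17 and 0.22. Dpp signalling had 15 of 22 higher and 1 lower, the EGF receptor pathway 16 of 25 higher and 1 lower, and the Notch pathway 14 of 32 higher and 1 lower. Their medians were 0.23, 0.25 and 0.10, and without insulin replicates 2 and 3 they were 0.21, 0.25 and 0.08. Called members made up 54.2% of the Wingless list and 46.9% of the Notch list, against 56.8% of all genes. spi, the main ligand of the EGF receptor, had 403, 390.5 and 384 FPKM with 20E, 112, 124 and 118 FPKM with insulin and 318, 318 and 329.7 FPKM with no hormone, so the insulin libraries were far below those of the other conditions. tok, a Tolloid-related protease that acts on TGF-beta family signalling, had 141, 162 and 156 FPKM with 20E, 43.3, 43.9 and 40.8 FPKM with insulin and 54.4, 50.8 and 50.02 FPKM with no hormone, so here the 20E libraries were far above the others. Ance, a peptidase gene that responds to Dpp, was at 329 ± 40.3 FPKM with 20E, 152 ± 18.1 FPKM with insulin and 226 ± 21.1 FPKM with no hormone (SD, n = 3 each). Of the 18 wing disc identity markers, 11 were higher with 20E and none lower, with a median of 0.27. The largest of these was ap, the dorsal selector gene, at 139, 145 and 139 FPKM with 20E and 102, 91.1 and 93 FPKM with insulin.

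**Figure D4:**
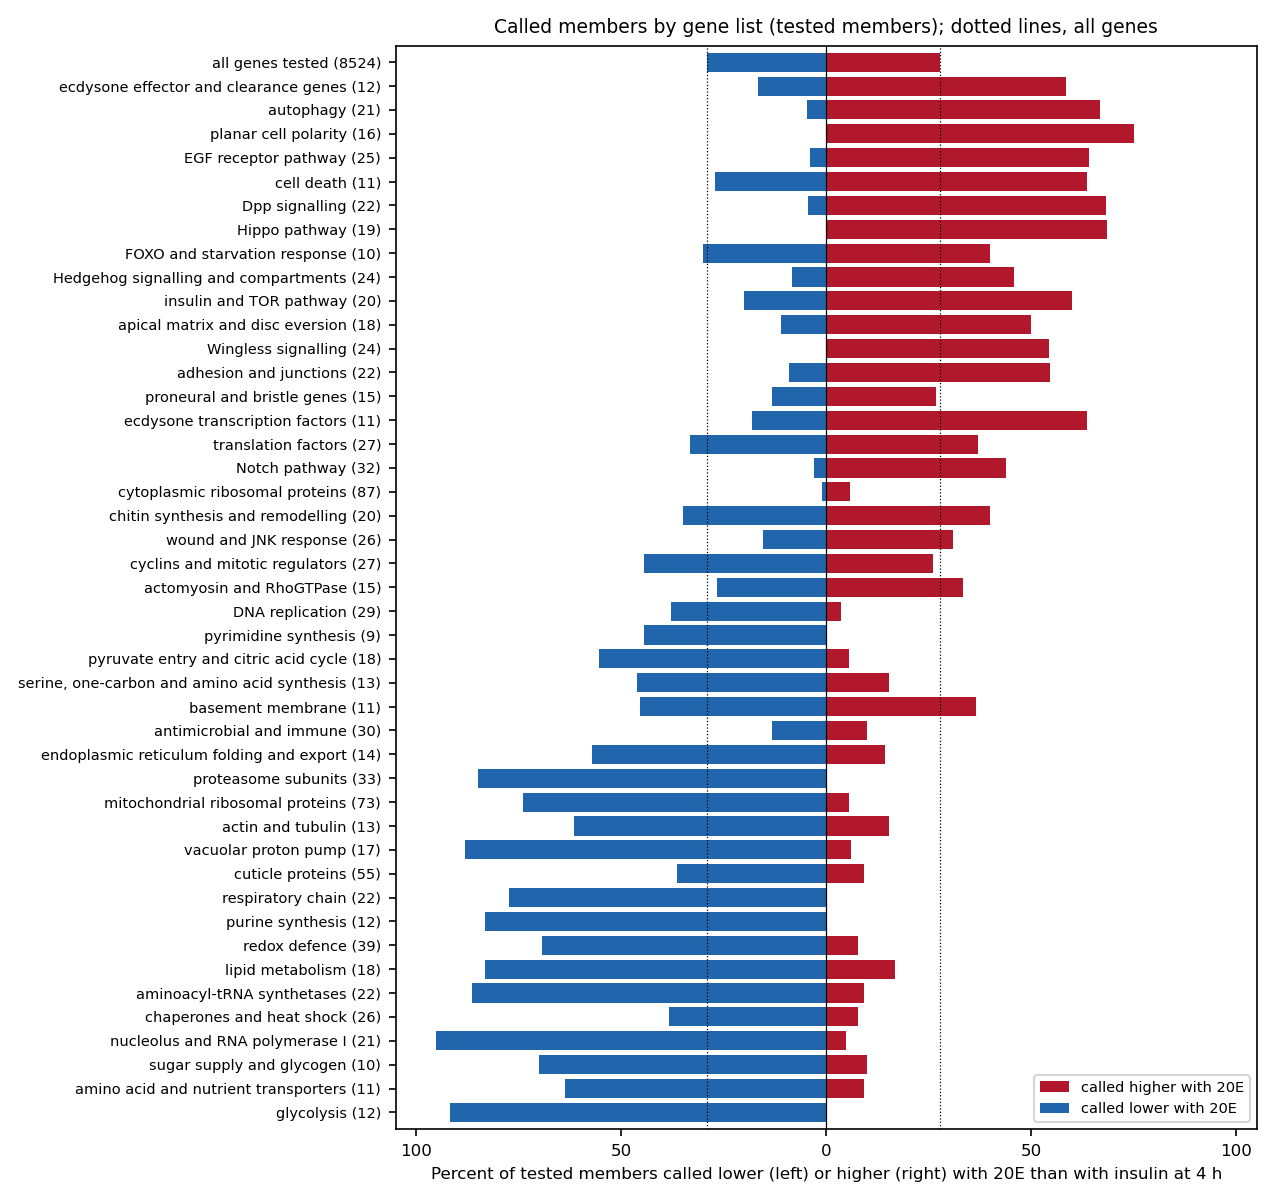
Percent of the tested members of each gene list that were called higher (right) or lower (left) with 20E than with insulin at 4 h, ordered by median difference, for lists with at least 9 tested members (number in brackets). The top row and the dotted lines give all 8524 genes, 27.6% higher and 29.2% lower. The nucleolus, glycolysis and vacuolar proton pump lists extend furthest to the left, and planar cell polarity, the Hippo pathway and Dpp signalling furthest to the right.

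Matrix genes under the epithelium moved in opposite directions. Of 11 basement membrane genes tested, 4 were higher with 20E and 5 lower, where 27.6% of all genes were higher and 29.2% lower. The collagen IV genes fell: vkg had 11.2, 9.43 and 10.1 FPKM with 20E and 38.6, 34.4 and 35.9 FPKM with insulin, and Cg25C, now named Col4a1, had 27.8, 21.7 and 24.4 FPKM with 20E and 68.8, 63.6 and 60.9 FPKM with insulin. A list of 12 haemocyte genes, which includes vkg, summed to 31.9 to 34.3 FPKM in 20E libraries and to 60.1 to 75.04 FPKM in insulin libraries. Of its members 4 were tested, and vkg and PPO2 were lower with 20E. Most of each sum was vkg itself and crq, a scavenger receptor gene that was not called, at 20.7 ± 1.499 FPKM with 20E and 21.6 ± 0.481 FPKM with insulin (SD, n = 3 each). Hml, He, NimC1 and eater, all defining members, were at most 0.437 FPKM in any of the 6. PPO1 and PPO2, prophenoloxidase genes of crystal cells, were highest in insulin replicates 1 and 2. PPO1 had 0.05098, 0.426 and 0.351 FPKM with 20E and 4.23, 1.699 and 0.376 FPKM with insulin, and PPO2 had 0.0131, 0.831 and 0.482 FPKM with 20E and 8.52, 3.02 and 0.603 FPKM with insulin (limma adjusted p = 0.0593 and 0.0383). The groups of both genes overlapped, and the PPO2 call was lost when 20E replicate 1 or 3 or insulin replicate 1 or 2 was left out (limma adjusted p = 0.124, 0.0693, 0.202 and 0.0797). The part of haemocytes in the collagen difference was not tested. Mp, the collagen XV/XVIII homologue, rose to 18.4, 26.1 and 24.7 FPKM with 20E, against 5.81, 4.296 and 4.53 FPKM with insulin, and LanA, a laminin chain, to 129.8, 136 and 139.7 FPKM with 20E, against 66.95, 68.2 and 62.97 FPKM with insulin.

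Discs kept for 9 h, which share no library with those at 4 h, gave the comparison of the hormones at a second time. At 9 h 4517 genes (53.0%) were called, 26.6% higher with 20E and 26.4% lower. Of the 162 genes at least 2-fold higher with 20E at 4 h, 133 (82.1%) were called in the same direction at 9 h, 20 were not called and 9 were called in the opposite direction. Of the 295 at least 2-fold lower, 258 (87.5%) were called in the same direction, 34 were not called and 3 were opposite. At 9 h 180 genes (2.11%) were at least 2-fold higher with 20E and 326 (3.82%) at least 2-fold lower. The lists of 2-fold higher genes shared 95 genes, 58.6% of the list at 4 h and 52.8% of the list at 9 h, and those of 2-fold lower genes shared 175, 59.3% and 53.7%. The difference between the times was itself called for 2261 genes (26.5%), 13.5% towards 20E at 9 h and 13.0% away from it, and for 1283 without insulin replicates 2 and 3.

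The difference shrank at 9 h for several metabolic genes and grew for several cuticle genes. path was lower with 20E at 4 h but at 96.7, 88.4 and 132 FPKM with 20E and 58.5, 30.2 and 56.4 FPKM with insulin at 9 h, and its hormone difference shifted by 2.86 on the log2 scale (limma adjusted p = 3.40e-04). ImpL2 was at 30.9, 24.5 and 38.01 FPKM with 20E and 64.6, 39.1 and 90.8 FPKM with insulin at 9 h, and ImpL3 at 26.4, 27.5 and 27.6 FPKM with 20E and 112, 55.2 and 154 FPKM with insulin. Their differences of -0.98 and -1.82 at 9 h were closer to 0 than at 4 h. At 9 h stg had 74.1 ± 10.2 FPKM with 20E and 75.3 ± 8.38 FPKM with insulin (SD, n = 3 each). Lcp65Ag2 was further apart, with 0.186, 0.267 and 0.191 FPKM with 20E and 175, 128 and 181 FPKM with insulin at 9 h, a difference of -7.05. Among the list of glycolysis genes the shift was called towards 20E for 8 of 12 and away from it for none, and all 12 were still lower with 20E at 9 h. Of 29 DNA replication genes, 18 were higher with 20E at 9 h and none lower, and the shift was called towards 20E for 15 and away from it for none. Of 55 cuticle protein genes, 29 were lower at 9 h and 2 higher, and the shift was called away from 20E for 15 and towards it for 1.

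**Figure D5:**
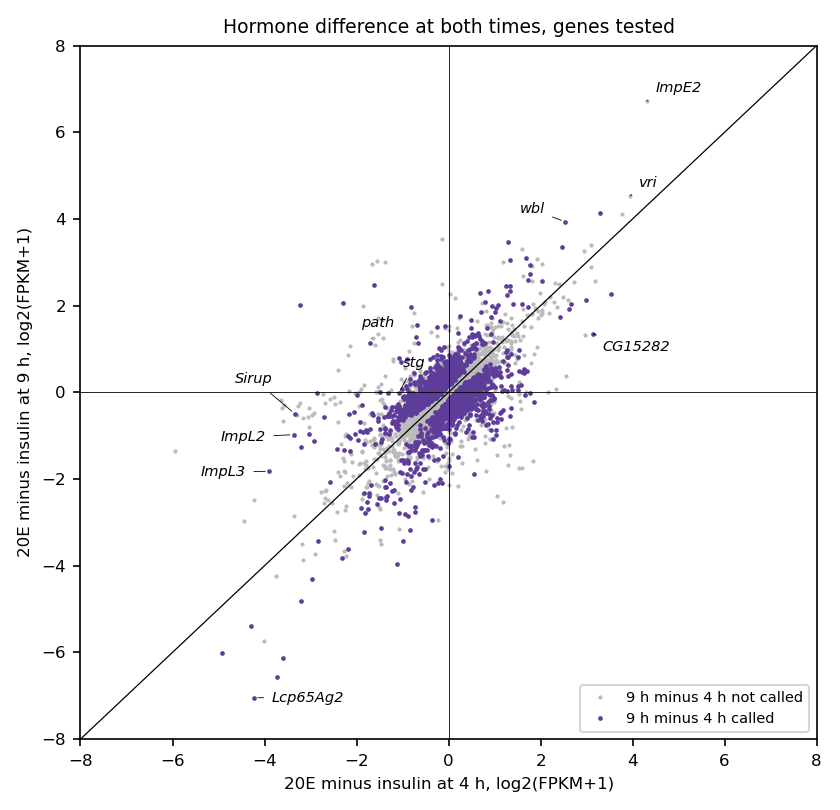
Difference of 20E minus insulin at 4 h (horizontal) and at 9 h (vertical) on the log2(FPKM + 1) scale for the genes tested; purple points are genes whose difference was called as unequal at the 2 times, and the diagonal marks equal differences. path lies at -1.71 and 1.15, Sirup and ImpL2 lie nearer to 0 at 9 h than at 4 h, and Lcp65Ag2 lies at -4.24 and -7.05.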

How the data were processed

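RNA was measured by poly(A) RNA-seq, and the deposited table gives FPKM per gene and replicate, computed by the authors. The submitters' processing notes name cutadapt, TopHat2, Cufflinks and the build BDGP5, with no versions or roles. The scaling between libraries and whether strand was used in counting are not given in the sources used here, so overlapping and antisense genes cannot be told apart. Total counts were not used here. No coordinates or sequences are given, since no genome or sequence table of the files' build was used. Of 15602 identifiers, 14925 were found in a current gene name table, which gave the newer names. Another 392 identifiers have no name in the deposited table.

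Values were taken as log2(FPKM + 1), which understates changes of low genes, for genes at 1 FPKM or more in at least 3 of 18 libraries. limma 3.58.1 in R 4.3.3 was fitted to all 18 libraries with 1 mean per group and trended variances, and p-values were two-sided and adjusted over 8524 genes by the method of Benjamini and Hochberg. The code was tested on simulated data. For 1 gene at 3 libraries a group, the smallest exact permutation p is 0.1. Groups came from the sample titles. Beside the 15 largest rises and 15 largest falls (called, protein-coding, groups not overlapping, mean of at least 5 FPKM in the higher group), genes were named as members of lists after their values were seen. Members and lists were chosen with earlier results of these data known. The alternatives tried were another pseudocount, filters, rescalings, smaller fits, a replicate block, array weights and leaving out libraries.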

Additional observations from a re-analysis of the deposited data

Results flagged for a closer look

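These genes were singled out because limma called their 20E minus insulin difference unequal at 9 h and 4 h (adjusted p under 0.05). Only genes followed by name in this text were considered, not all 2261 genes so called. Many were named for large differences at 4 h. The test of the shift uses those 4 h values again, so shifts back towards no difference were favoured in advance. Each value is the difference at 9 h minus the difference at 4 h on the log2(FPKM + 1) scale, so a positive value means a shift towards 20E. A sample far from its group was not looked for by a rule, as each group has 3 libraries.

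Among ecdysone genes, the value was -1.26 for Eip75B, -0.48 for ftz-f1, 0.85 for ImpE1 and 1.71 for ImpE3. Eip75B was at 58.7, 52.9 and 55.2 FPKM with 20E and 10.3, 9.37 and 12.7 FPKM with insulin at 9 h, so its insulin libraries were above those at 4 h. Among other large rises it was -1.81 for CG15282, -0.85 for CG9416, -0.63 for CG11686, -0.69 for pdgy and 1.40 for wbl. CG15282 was the gene whose 20E level was lowest at 9 h relative to 4 h in this set, at 3.49, 4.18 and 2.15 FPKM.

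Called shifts of named glycolysis genes were 2.07 for ImpL3, 1.18 for Pfk, 0.94 for Hex-A and 1.11 for Pglym78. Those of named sugar supply genes were 0.87 for Treh and 1.67 for Tret1-1. In the full lists the shift was called towards 20E for 8 of 12 glycolysis genes but only 2 of 10 sugar supply genes. It was called away from 20E for none of either list. Lipid genes shifted by 0.94 for CG3523, 0.63 for ACC, 0.53 for HLH106 and -1.23 for mdy. Transporters and one-carbon genes shifted by 2.86 for path, 2.13 for mnd, 0.85 for JhI-21, 0.54 for CG3011, 1.42 for CG6287 and 0.86 for Nmdmc. mnd was at 10.2, 7.47 and 13.8 FPKM with 20E and 19.6, 10.5 and 18.3 FPKM with insulin at 9 h. For Cyt-c-p the shift was 1.13, for NHP2 1.05, for nop5 0.47, for Aats-val 0.88 and for Hsp83 0.96.

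Insulin pathway genes shifted by 2.38 for ImpL2, -0.72 for Sesn and -0.74 for CG18619, and the autophagy genes by 0.36 for Atg1 and -0.45 for Atg8a. Cell cycle genes shifted by 1.06 for stg, 0.62 for CycB, 0.80 for CycE and 0.19 for E2f1. Signalling genes shifted by 1.95 for daw, 0.23 for spi and 0.54 for Ance.

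Among cuticle, chitin and matrix genes named here the shift was -2.83 for Lcp65Ag1, -2.81 for Lcp65Ag2, -2.54 for Lcp65Ag3, -1.10 for obst-E, -1.51 for Cda5, -1.07 for Cda4, -1.22 for Gasp and -0.82 for Cg25C. Over the lists, the shift was called towards 20E for none and away from it for 10 of 20 chitin genes. The same counts, towards and away, were 3 and 4 of 11 basement membrane genes. They were 8 and 1 of 18 apical matrix and disc eversion genes. For all genes tested the shares were 13.5% towards 20E and 13.0% away from it. The shift was -1.09 for CG12164, -1.6 for Aldh and -0.60 for the muscle gene sls. For Sirup it was 2.84, with 50.5, 40.6 and 47.2 FPKM with 20E and 59.6, 63.8 and 73.01 FPKM with insulin at 9 h.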

How the results depend on the processing

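The count of genes called between 20E and insulin at 4 h was 4841 and stayed within 1.5 times of that in every alternative run, from 3358 without the insulin libraries with gut transcripts, an alternative chosen after seeing the data, to 6041 with array weights. The count at least 2-fold higher was 162, and 265 with a pseudocount of 0.1. The count of genes whose difference was unequal at 9 h and 4 h was 2261, but 3719 with array weights and 1283 without insulin replicates 2 and 3. The other counts over all genes stayed within 1.5 times. Leaving out each replicate in turn gave 4362 to 4627 calls at 4 h, 156 to 180 and 275 to 316 at least 2-fold higher and lower, 3995 to 4313 at 9 h, 1866 to 2294 for the difference between times, 1979 to 2625 for 20E against no hormone and 4501 to 4756 for insulin against no hormone. Quantile normalization called 2672 higher and 2126 lower at 4 h. Replicate numbers are shared between groups, but same-numbered 20E and insulin libraries deviated together only weakly (r of deviations from group means 0.188, 0.052 and 0.004), and 20E replicate 2 correlated best with insulin replicate 3 (0.127), so the numbers were not taken to pair the libraries, although in single genes such as Pfk, GlyP and ImpE2 replicate 1 was highest and replicate 2 lowest with either hormone; with a replicate block 4921 genes were called at 4 h. The 30 genes with the largest changes kept their direction and call in every alternative that tested them. They were picked from these same libraries for large differences without overlap, so this was largely fixed in advance. The cause of each dependence was not tested, and the search for promoter motifs was not run. Depth limits genes near 1 FPKM, whose log2 differences move with the pseudocount.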

Other observations

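Autophagy and acid compartment genes differed in opposite directions. Where 27.6% of all genes were higher with 20E and 29.2% lower, 14 of 21 tested autophagy genes were higher and 1 was lower. The autophagy median was 0.28. Atg8a, which coats autophagosome membranes, had 329, 323 and 324 FPKM with 20E and 218, 206 and 203 FPKM with insulin, and Atg1, the initiating kinase, was the member that fell, at 17.9, 18.1 and 19.6 FPKM with 20E and 26.1, 24.98 and 23.6 FPKM with insulin. Of 17 genes of the vacuolar proton pump, which acidifies lysosomes and apical vesicles, 15 were lower with 20E and 1 higher, with a median of -0.30. Among clock genes, Pdp1, a bZIP activator, stood opposite to vri, at 3.17, 4.25 and 2.87 FPKM with 20E and 11.7, 16.8 and 14.4 FPKM with insulin. chinmo, a factor of juvenile cell identity, fell to 8.31, 14.6 and 14.03 FPKM with 20E, against 31.4, 56.8 and 43.8 FPKM with insulin and 38.02, 70.3 and 49.5 FPKM with no hormone. Of 30 antimicrobial and immune genes tested, 3 were higher with 20E, 4 lower and 23 not called, so 23.3% were called, against 56.8% of all genes.

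Of 175 small nucleolar RNA genes tested, 19 were lower with 20E and none was called higher, with a median of -0.25. Both shares were under those of all genes, 29.2% lower and 27.6% higher. Libraries were poly(A) selected, which these RNAs mostly escape. The summed level of 13 muscle genes was 309 to 323 FPKM with 20E and 356 to 369 FPKM with insulin, most of it from 1 tropomyosin gene, Tm1, at 281 ± 6.08 FPKM with 20E and 327 ± 4.91 FPKM with insulin (SD, n = 3 each). Of the 11 tested, 2 were lower with 20E, 8 were not called and 1 was higher, the titin homologue sls, at 6.53, 9.86 and 9.33 FPKM with 20E and 4.14, 4.45 and 4.11 FPKM with insulin. The sum of 6 tracheal genes was 203 to 207.5 FPKM with 20E and 233 to 283 FPKM with insulin, a gap carried largely by Gasp, a chitin-binding protein gene, at 97.7 ± 2.02 FPKM with 20E and 146 ± 29.9 FPKM with insulin (SD, n = 3 each). Of these 6 genes 3 were higher with 20E, btl, trh and dys, and 2 were lower, with a median of 0.06. The call of Gasp was lost without insulin replicate 2 (limma adjusted p = 0.0592), and that of Tm1 after quantile normalization (limma adjusted p = 0.771). Of 13 actin and tubulin genes tested, 2 were higher with 20E and 8 lower. The part of muscle or tracheal cells in any result was not tested. The adult muscle precursor list of 7 genes summed to 93.6 to 113 FPKM with 20E and to 92.1 to 104 FPKM with insulin.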
